A study of Homo sapiens
Mus musculus and Mus musculus and Homo sapiens with 3 samples.

Results

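Collagen chain genes encode the polypeptides that assemble, 3 at a time, into the triple helices of the extracellular matrix. The members were all rows whose upper-cased symbol reads COL, a number, A and a number (COL1A1, COL6A2 and so on) and that stand in the tables of all 4 library parts of the study: 42 genes, of 45 with such a symbol in any table and of 15472 symbols common to the 4 tables. COL21A1, COL26A1 and COL6A4 were the other 3 symbols. Of the 42, 29 passed the filter on low counts and were tested, and 13 did not pass it (COL10A1, COL15A1, COL17A1, COL19A1, COL20A1, COL24A1, COL28A1, COL4A3, COL4A4, COL5A3, COL6A5, COL6A6 and COL8A2).

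The chains fall into families by how the finished molecule assembles. Fibril-forming chains (types I, II, III, V, XI and XXVII) make the banded fibrils of connective tissue, and fibril-associated chains (types IX, XII, XIV, XVI and XXII among those tested) decorate them. Type IV chains form the sheet of basement membranes, type VI chains form beaded microfilaments around cells, and type XVIII, a multiplexin, is a basement membrane proteoglycan whose end fragment is endostatin. Types XIII, XXIII and XXV span the plasma membrane. In the embryo, mesenchyme is the main maker of fibrils, while the neural tube is wrapped by a basement membrane that its own progenitors help to build, and chains of types XIII and XXV are known from developing nerve and muscle.

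The study differentiated human and mouse pluripotent cells into spinal motor neurons as embryoid bodies and profiled single cells. Human replicate 1 was the NCRM1 line and human replicate 2 the RUES1 line, both labelled as induced pluripotent cells, and both mouse replicates were C57BL/6 embryonic stem cells. All cells carried a lentivirus with a barcode and a GFP driven by the CAGGS promoter, and GFP-positive cells were sorted after papain dissociation, so cells without GFP were not sampled. Human cultures were sampled every 48 h and mouse cultures every 24 h, but no day is given per cell, so a difference between cell classes and a difference between days cannot be told apart. Human replicate 1 and mouse replicate 1 came from 1 mixed library and human replicate 2 and mouse replicate 2 from a library each, which gives n = 2 per species. Nothing in the labels says that the replicates were separate cultures, and the human pair are different lines. With each part as a block in the fit, p-values measure how far class differences vary between these parts. The spread of levels between the parts is taken out by the block.

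The 4 parts held 1881 to 2783 cells with 28577630 to 83969715 unique molecular identifiers (UMIs, counted transcript molecules) in all and medians of 11137 to 28792 UMIs per cell. After filtering, 1805 to 2674 cells per part were used. At most 60 cell barcodes were shared between any pair of parts, those 60 by the human and mouse parts of the mixed library, whose barcodes in both species files were left out.

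Cells were gated by their own UMIs. A neuron had at least 3 UMIs of STMN2, and it was a motor neuron if it also had a UMI of ISL1 or MNX1. Other cells with a UMI of LUM or TWIST1, which mark mesenchyme, formed the next class, and of the rest those with a UMI of SOX2 were progenitors. In the order human replicate 1, human replicate 2, mouse replicate 1 and mouse replicate 2, which is kept for every series of 4 values below, the gates held 1323, 780, 1323 and 1484 progenitors, 251, 363, 128 and 314 motor neurons, 298, 111, 136 and 190 other neurons, and 199, 437, 16 and 377 cells with LUM or TWIST1 UMIs. The class of 16 cells in mouse replicate 1 is thin, and none of its cells had 3 such UMIs. Neurons that also had a LUM or TWIST1 UMI (13, 62, 1 and 22) and cells in no gate (237, 52, 207 and 287) were set aside.

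Marker genes that the gates did not use mostly followed the class names. The summed level of 16 mesenchyme markers, in UMIs per 1000000 UMIs of the class (CPM), was 378, 686, 109 and 979.8 in the LUM or TWIST1 cells and 23.4, 32.0, 40.9 and 276 in the progenitors. In mouse replicate 1 that class lacked PDGFRA, PRRX1, POSTN, TBX18, TCF21, FBN1, MFAP4, OGN and FOXC2, so 9 of the 16 markers were at 0 and the data did not bear out a mesenchymal name for those 16 cells. The 8 other motor neuron markers (LHX3, ISL2, CHAT and others) summed to 486, 514, 661 and 1214 CPM in the motor neurons and to 472, 457, 197 and 320.3 CPM in the other neurons. In human, then, these markers were about as high in the neurons without an ISL1 or MNX1 UMI. By edgeR 0 of the 8 differed between the 2 neuron classes in human (0.674% of all tested genes) and 7 of 8 in mouse (2.52%). The 11 interneuron markers summed to 97.5, 202, 589.7 and 669 CPM in the other neurons and to 6.71, 37.2, 51.1 and 166 CPM in the motor neurons.

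Together the 42 genes took 0.174%, 0.238%, 0.0246% and 0.0950% of all UMIs in the LUM or TWIST1 cells. In the progenitors their share was 0.0279%, 0.0464%, 0.0155% and 0.0222%, in the motor neurons 0.0195%, 0.0223%, 0.00291% and 0.00408%, and in the other neurons 0.0225%, 0.0237%, 0.00525% and 0.00612%. The collagen share of the human neurons was thus above that of the mouse neurons in every part, without overlap. The leading gene differed between species within a class. In progenitors COL4A2 led in human, with 23.1% and 25.7% of the collagen UMIs, and COL18A1 led in mouse, with 68.4% and 54.5%. In motor neurons COL6A1 led in human, with 49.4% and 42.0%, while COL22A1 led in mouse replicate 1 (24.1% of only 58 UMIs) and COL18A1 in mouse replicate 2 (15.2%).

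**Figure D1:**
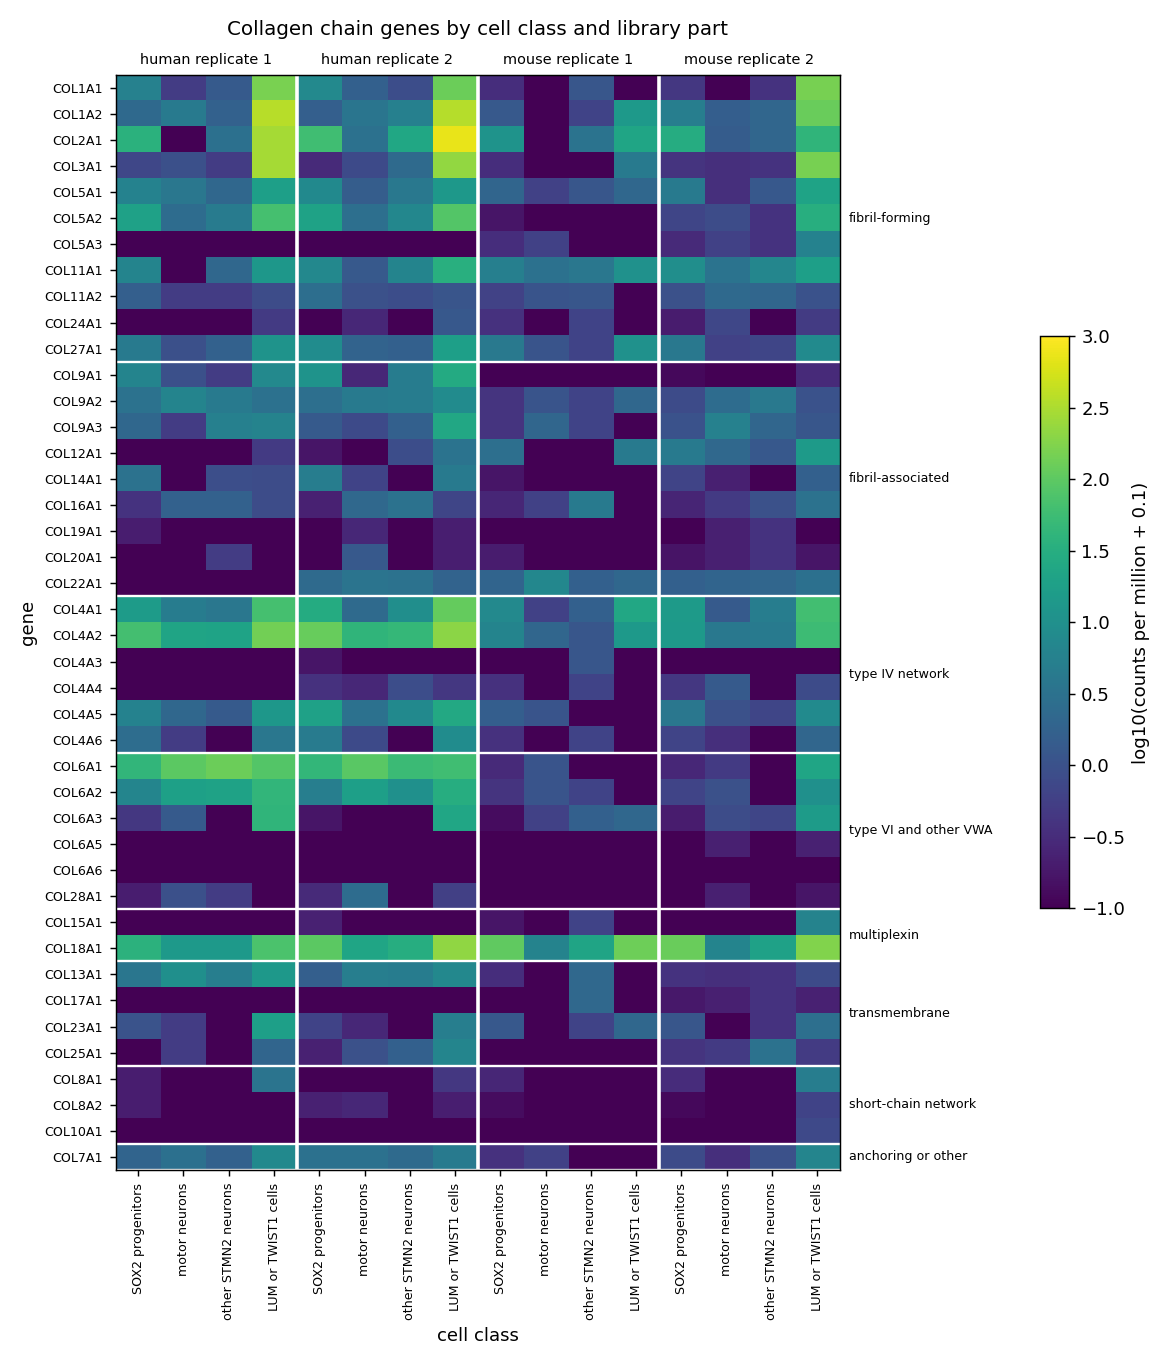
Level of each of the 42 collagen chain genes (rows, grouped by family) in each of 4 cell classes of each library part (columns), as log10 of CPM plus 0.1. Levels are 3′ UMI counts, which also carry how well each 3′ end is captured. Colours are therefore meant to compare a gene across columns and not genes with each other. COL1A1, COL1A2 and COL3A1 are bright in the LUM or TWIST1 cells of both human parts and mouse replicate 2, COL6A1 is bright in every human column, and COL18A1 is bright in the progenitors of all 4 parts.

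The question of which collagens belong to the mesenchymal cells was addressed by comparing the LUM or TWIST1 cells with the progenitors of the same library. Types I and III are the main fibril collagens of mesenchyme. COL1A2, a chain of type I collagen, stood at 2.20, 1.53, 1.22 and 5.04 CPM in the progenitors and at 368, 362, 14.4 and 119.8 CPM in the LUM or TWIST1 cells. COL3A1, the type III chain, stood at 0.62, 0.20, 0.238 and 0.303 CPM against 293, 224, 4.13 and 153 CPM. COL1A1, the other type I chain, stood at 5.58, 7.41, 0.238 and 0.344 CPM against 157, 127, 0 and 149 CPM. For all 3 genes both human parts and mouse replicate 2 rose, and the 16 cells of mouse replicate 1 held only 0 to 7 UMIs of each.

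In human, edgeR's quasi-likelihood test with library part as a block called 18 of the 29 tested members higher in the LUM or TWIST1 cells and 0 lower (Benjamini-Hochberg adjusted p under 0.05 over all 11567 tested genes, used for every call below), where 4.33% of all tested genes were higher and 2.97% lower. The members' median log2 fold change was 1.63, and that of all tested genes was -0.08. Log2 fold changes were 9.23 ± 0.49 (SE) for COL3A1 (adjusted p = 3.17e-07), 7.59 ± 0.28 for COL1A2 (6.77e-09), 7.30 ± 0.64 for COL6A3 (2.56e-05) and 4.44 ± 0.47 for COL1A1 (0.000112). Among fibril-forming chains, 7 of 9 rose: besides these, COL2A1 (3.28 ± 0.33), the cartilage and notochord chain, COL5A2 (1.92 ± 0.21), which joins type I fibrils, COL11A1 (1.63 ± 0.33) and COL27A1 (1.20 ± 0.30). All 3 tested membrane-spanning chains rose, with 3.78 ± 0.48 for COL23A1, 2.04 ± 0.48 for COL13A1 and 60 UMIs against 2 for COL25A1. Of the basement membrane chains COL4A1 (2.02 ± 0.23), COL4A2 (0.93 ± 0.19) and COL18A1 (1.07 ± 0.15) rose, and so did COL9A3 (3.13 ± 0.58) and COL6A2 (2.66 ± 0.35). COL12A1 and COL8A1 were also called, on 29 UMIs against 1 and 12 against 2 in the progenitors.

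Epithelial markers summed to 69.4 and 238 CPM in the human LUM or TWIST1 cells and to 92.2 and 80.3 CPM in the progenitors, and neural progenitor markers to 674 and 2031 against 2940.3 and 4223 CPM. The part of cells with these markers in the changes was not tested.

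COL6A1 was the exception among the abundant chains. It stood at 86.3 and 59.6 CPM in the human LUM or TWIST1 cells and at 43.3 and 44.2 CPM in the human progenitors, a log2 difference of 0.69 ± 0.33 that did not pass the test (adjusted p = 0.261). Of the 18 human calls, 7 were also made without either human part (COL1A1, COL1A2, COL2A1, COL3A1, COL4A1, COL5A2 and COL6A3). Without human replicate 1 there were 10 calls among the members and without human replicate 2 there were 9, and all called members with a value kept their sign.

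In mouse, 13 of 29 members were called higher and 0 lower, where 1.89% of all tested genes were higher and 0.804% lower, and the median was 1.69 against -0.03 for all tested genes. The rise was 8.14 ± 0.59 for COL3A1 (adjusted p = 1.24e-05), 7.92 ± 0.78 for COL1A1, 6.95 ± 0.75 for COL6A3, 6.24 ± 0.64 for COL6A1, 5.56 ± 0.36 for COL5A2, 4.32 ± 0.30 for COL1A2 and 3.90 ± 0.51 for COL6A2. COL16A1 (4.06 ± 0.75), COL8A1 (3.96 ± 0.80), COL7A1 (2.89 ± 0.67), the anchoring fibril chain, COL5A1 (2.03 ± 0.47), COL4A1 (1.87 ± 0.27) and COL4A2 (1.75 ± 0.24) were the other calls. COL2A1 (0.54 ± 0.38, adjusted p = 0.745) and COL18A1 (0.39 ± 0.16, adjusted p = 0.324) did not pass the test in mouse. These calls rest on mouse replicate 2: without it 0 members were called (by edgeR), and COL1A1, COL5A1, COL5A2, COL6A1, COL6A2, COL7A1 and COL16A1 changed sign, with fitted changes of -4.04, -0.04, -2.44, -3.84, -4.39, -4.23 and -3.59 from the 16 cells of mouse replicate 1.

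Within mouse replicate 2 the fibril and type VI chains sat in a minority of the gated cells. The 99 cells with at least 3 LUM or TWIST1 UMIs held 596.9 CPM of COL1A1, 426.7 CPM of COL1A2, 614.0 CPM of COL3A1 and 88.5 CPM of COL6A1. The 278 cells with 1 or 2 such UMIs held 1.5, 19.1, 2.1 and 0.8 CPM of the same genes. COL18A1 and COL2A1 did not split this way, at 230.3 against 159.4 CPM and 38.4 against 42.1 CPM. The 10 cells with the most UMIs of a gene held 70.8% of the 2223 COL1A1 UMIs of this class, 60.7% of those of COL3A1 and 67.6% of those of COL6A1, against 9.33% for COL18A1. In human the 10 highest cells held less, 28.8% and 17.1% for COL1A1, 17.6% and 15.6% for COL3A1 and 21.4% and 12.3% for COL6A1.

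**Figure D2:**
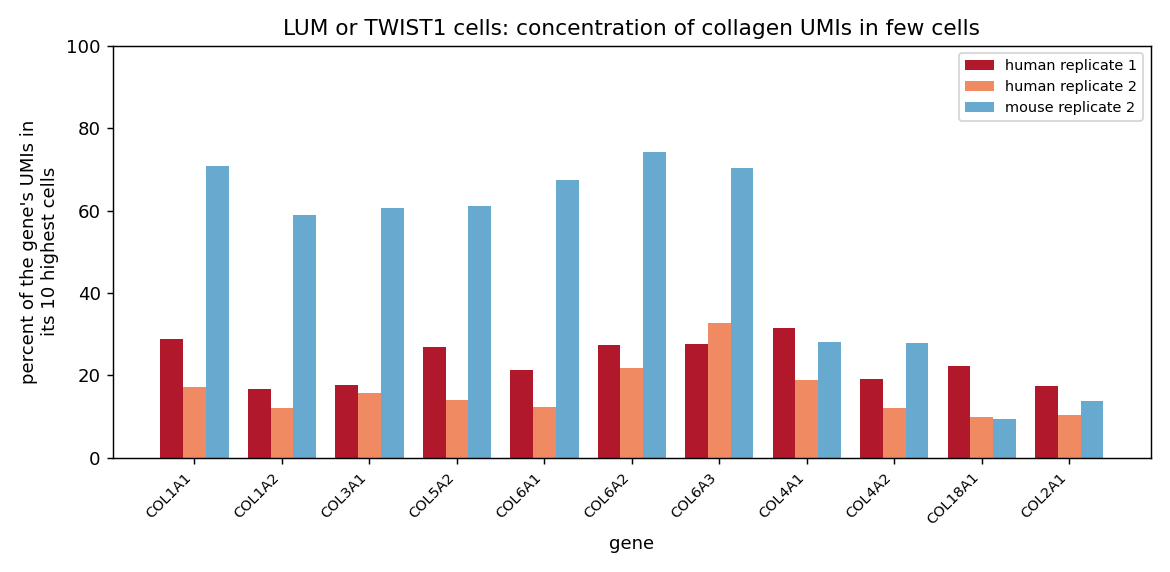
Share of a collagen gene's UMIs in the LUM or TWIST1 cells that the 10 highest cells hold, in percent, for both human parts and mouse replicate 2. In mouse replicate 2 the type I, III and VI chains stand near 60 to 74%, while COL18A1 stands at 9.33%.

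The type II gene COL2A1 had the most UMIs of any member in the LUM or TWIST1 cells of human replicate 2. It stood at 36.2, 60.2, 11.2 and 29.9 CPM in progenitors and at 289, 738, 22.7 and 41.2 CPM in LUM or TWIST1 cells. In human it followed the stricter gate, with 371.0 and 1197.7 CPM in cells with at least 3 LUM or TWIST1 UMIs and 124.4 and 143.1 CPM in cells with 1 or 2. The human change exceeded the mouse change by 2.74 ± 0.49 on the log2 scale (interaction term, adjusted p = 0.0145), a call that was not made without human replicate 2 (2.50, adjusted p = 0.0588) or mouse replicate 2 (2.43, adjusted p = 0.49). Cartilage or notochord markers other than collagens summed to 21.5, 5.70, 0 and 1.34 CPM in these cells and to 1.75, 1.60, 0.0680 and 0.526 CPM in the progenitors, and their part in the COL2A1 level was not tested.

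The human and mouse changes differed for 4 of 29 members (1.3% of all tested genes differed, in either direction). COL1A2 (3.27 ± 0.37, adjusted p = 0.000541) and COL2A1 rose more in human, and COL5A2 (-3.64 ± 0.39, adjusted p = 0.000418) and COL6A1 (-5.54 ± 0.71, adjusted p = 0.00242) rose more in mouse. Cells with at least 3 LUM or TWIST1 UMIs were 136 of 199 and 261 of 437 of the class in human. In mouse they were 0 of 16 and 99 of 377. The part of this unlike make-up in the differences was not tested. For COL5A2 and COL6A1 the progenitors already differed: COL5A2 stood at 19.2, 20.3, 0.0680 and 0.587 CPM and COL6A1 at 43.3, 44.2, 0.204 and 0.182 CPM. Without mouse replicate 2 both differences changed sign (4.37 and 4.53). The mouse class then held only the 16 cells of mouse replicate 1, whose mesenchymal name the data did not bear out. COL1A2 was called in every leave-one-out fit, but for that reason the fit without mouse replicate 2 adds no support.

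Type VI collagen is a trimer of the COL6A1, COL6A2 and COL6A3 chains in its common form. The 3 genes did not share a pattern in human cells. COL6A1 stood at 43.3 and 44.2 CPM in human progenitors, at 96.4 and 93.7 CPM in motor neurons, at 128 and 53.9 CPM in other neurons and at 86.3 and 59.6 CPM in LUM or TWIST1 cells. The motor neuron values lay above the LUM or TWIST1 values in both human parts. Against the cells with at least 3 LUM or TWIST1 UMIs this held in human replicate 2 but not in human replicate 1. Motor neurons were not tested against LUM or TWIST1 cells. COL6A2 stood at 6.42 and 5.0 CPM in progenitors, 18.9 and 17.8 CPM in motor neurons, 20.3 and 10.2 CPM in other neurons and 42.6 and 30.8 CPM in LUM or TWIST1 cells. COL6A3 had 6 and 1 UMIs in the progenitors, 3 and 0 in the motor neurons and 0 and 0 in the other neurons, but 109 and 199 in the LUM or TWIST1 cells (41.1 and 23.2 CPM). COL6A3 thus had at most 6 UMIs in any human neural class.

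In human motor neurons COL6A1 was 0.96 ± 0.33 higher than in progenitors on the log2 scale (adjusted p = 0.0305) and COL6A2 was 1.55 ± 0.36 higher (adjusted p = 0.0033). With either human part left out neither call was made. COL6A1 was then 1.01 (adjusted p = 0.217, without human replicate 1) and 0.94 (0.234, without human replicate 2), and COL6A2 1.75 (0.0827) and 1.34 (0.182). In other neurons COL6A2 was 1.19 ± 0.40 higher (adjusted p = 0.0347), and COL6A1, at 0.78 ± 0.34, did not pass the test (adjusted p = 0.0998). The 2 human parts differed for COL6A1 in other neurons, with a log2 change of 0.10 without human replicate 1 and 1.33 without human replicate 2. Mesenchyme markers summed to 7.13 and 12.5 CPM in human motor neurons and to 23.4 and 32.0 CPM in the progenitors. The 4 endothelial markers measured went the other way, with 7.13 and 14.6 CPM against 1.63 and 4.27 CPM. Of these, CDH5 was at 0 in the motor neurons of human replicate 1 and TEK in those of both parts. The part of cells with either set of markers in the type VI levels was not tested. Motor neurons and other neurons did not differ detectably in COL6A1 (0.18 ± 0.35, adjusted p = 0.965) or COL6A2 (0.36 ± 0.40, adjusted p = 0.895).

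The share of cells with a UMI told the same of COL6A1 in motor neurons. With each cell thinned to 7000 UMIs, 26.4% and 25.9% of human progenitors and 45.7% and 41.4% of human motor neurons had a COL6A1 UMI (Clopper-Pearson 95% intervals 24.0 to 29.0%, 22.6 to 29.4%, 38.4 to 53.1% and 35.8 to 47.1%, counting error only). Without thinning the motor neuron counts were 131 of 251 and 222 of 363 cells. In the other neurons 52.7% and 24.2% of thinned cells had one (44.9 to 60.4% and 14.2 to 36.7%), so the human parts differed there beyond counting error. Thinning left out 105 and 124 progenitors, 65 and 56 motor neurons and 129 and 49 other neurons as too shallow. By comparison 2.7% and 2.0% of human motor neurons had a UMI of COL1A2, the gene with the most collagen UMIs in the LUM or TWIST1 cells of human replicate 1 (21.1%). The 2 type VI genes were found in the same thinned motor neuron in 15 and 16 cells, where the product of their shares gives 8.23 and 12.8 cells.

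In mouse neural cells the type VI chains had few UMIs. COL6A2 had the most, with 9 and 28 in the progenitors of mouse replicates 1 and 2 (0.306 and 0.566 CPM), 2 and 7 in the motor neurons and 1 and 0 in the other neurons. COL6A1 had 6 and 9 UMIs in the progenitors of mouse replicates 1 and 2, 2 and 3 in the motor neurons and 0 and 0 in the other neurons. Of the 314 motor neurons of mouse replicate 2, 3 had a COL6A1 UMI. In the LUM or TWIST1 cells of mouse replicate 2 the 3 chains were all present, at 22.5 CPM (COL6A1), 10.1 CPM (COL6A2) and 15.5 CPM (COL6A3). COL6A3 was called higher in mouse motor neurons (2.66 ± 1.02, adjusted p = 0.0432) and mouse other neurons (3.19 ± 1.16, adjusted p = 0.0377), but on 1 and 6 and on 3 and 2 UMIs, beside 1 and 5 in the progenitors.

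**Figure D3:**
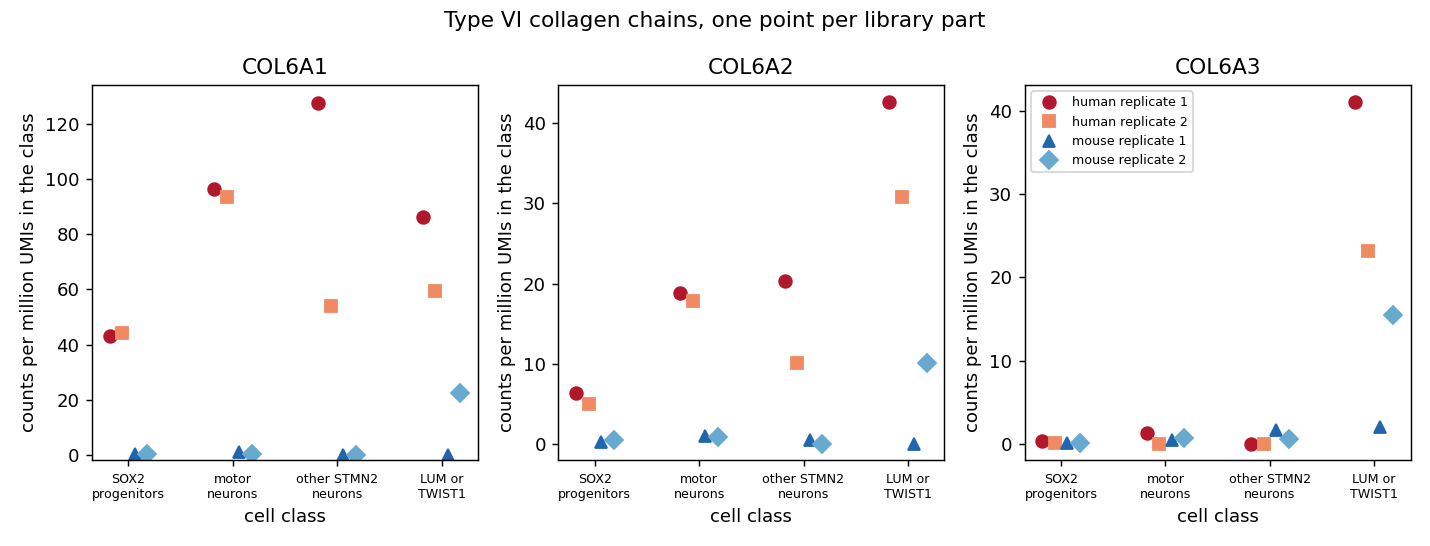
Levels of COL6A1, COL6A2 and COL6A3 in 4 cell classes, in CPM (UMIs per 1000000 of the class), with 1 point per library part. Human COL6A1 lies at 43.3 and 44.2 in progenitors and at 96.4 and 93.7 in motor neurons, while COL6A3 lies at 41.1, 23.2 and 15.5 in the LUM or TWIST1 cells of both human parts and mouse replicate 2 and at 0 to 1.59 in the neural classes.

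Mean COL6A1 levels were 43.8 ± 0.681 CPM (SD, n = 2) in human and 0.193 ± 0.0155 CPM in mouse progenitors, and 95.1 ± 1.94 against 0.687 ± 0.446 CPM in motor neurons. With 2 parts against 2 the smallest p an exact two-sided permutation test allows is 0.333, and all such species differences in level stand at or above it. COL5A2 (19.8 ± 0.843 against 0.327 ± 0.367 CPM in progenitors), COL4A2 (91.8 ± 38.8 against 10.1 ± 5.46 CPM) and COL9A1 (8.75 ± 3.38 against 0.0101 ± 0.0143 CPM), a chain of a fibril-associated collagen, were the same way round. COL12A1 was the other way round, with 0 and 1 UMIs in the human progenitors and 82 and 211 in the mouse progenitors. The human and mouse tables rest on different genome annotations. Tables of 1 species also differed in gene rows, with 32739 and 56832 in human replicates 1 and 2 and 27999 and 54087 in mouse replicates 1 and 2. The part of 3′ end annotation in these levels was not tested.

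COL6A1 lies on human chromosome 21 (hg38, 45981770 to 46005048) and COL6A2 beside it (46098112 to 46132848), with COL18A1 on the same chromosome (45405165 to 45513720). COL6A1 and COL6A2 are 93063 bases apart and COL18A1 and COL6A1 468049 bases apart. The mouse genes are neighbours too, on chromosome 10, at 85161 and 326009 bases. COL18A1 nevertheless moved the other way from its human neighbours in neurons.

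COL18A1, the basement membrane multiplexin, was higher in progenitors than in both neuron classes of both species, and each of these 4 calls was also made in every fit that left out 1 part. It stood at 37.4, 97.4, 106 and 121 CPM in progenitors and at 13.8, 22.4, 6.01 and 6.20 CPM in motor neurons, which did not overlap. In other neurons it stood at 14.1, 30.5, 21.7 and 19.6 CPM. The log2 change from progenitors to motor neurons was -2.02 ± 0.18 in human (adjusted p = 2.38e-06) and -4.48 ± 0.21 in mouse (1.41e-08), and that to other neurons -1.77 ± 0.19 (2.7e-05) and -2.80 ± 0.18 (1.93e-07). The fall was larger in mouse than in human for motor neurons (difference 2.46 ± 0.28, adjusted p = 0.00012) and for other neurons (1.03 ± 0.27, adjusted p = 0.0285). The motor neuron difference was called in each leave-one-out fit (2.25 to 2.84), and the other neuron difference in the fit without mouse replicate 1 but not without human replicate 1 (0.92, adjusted p = 0.209), human replicate 2 (1.18, adjusted p = 0.153) or mouse replicate 2 (0.82, adjusted p = 0.242). The other neuron difference turned to -0.11 when a neuron needed only 1 STMN2 UMI. Thinned to 7000 UMIs, 23.4%, 45.4%, 49.3% and 54.3% of progenitors and 10.2%, 11.7%, 4.07% and 4.25% of motor neurons had a COL18A1 UMI.

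COL18A1 was also the only member called between the neuron classes. In mouse the change from other neurons to motor neurons was -1.68 ± 0.24 (adjusted p = 0.00216), where 2.52% of all tested genes differed in either direction, and the call was not made without mouse replicate 2 (-1.80, adjusted p = 0.159). Its UMIs in the mouse other neurons were uneven between cells, with the 10 highest cells holding 65.9% and 82.4%. In human 0 of 29 members were called between the neuron classes (0.674% of all tested genes), with 4 members at an unadjusted p under 0.05 by edgeR and 0 called by DESeq2. No member differed between species in this comparison (0 called by edgeR, against 0.156% of all tested genes, with 3 at an unadjusted p under 0.05 and 0 called by DESeq2). The members' medians were -0.01 in human and -0.15 in mouse, beside 0.04 and -0.03 for all tested genes.

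Against the progenitors, human motor neurons had 4 of 29 members higher and 14 lower, where 18.9% of all tested genes were higher and 25.7% lower. The members' median was -1.76 and that of all tested genes -0.09. The 4 that rose were COL6A1, COL6A2, COL13A1 (1.36 ± 0.49, adjusted p = 0.0377), a membrane-spanning chain known from the neuromuscular junction, and COL16A1 (2.95 ± 0.84, adjusted p = 0.0116). COL13A1 stood at 9.64 and 5.11 CPM in human motor neurons against 3.61 and 1.53 CPM in progenitors, without overlap. COL16A1, a fibril-associated chain, rested on 4 and 12 UMIs in motor neurons and 5 and 2 in progenitors.

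Of the members that fell in human motor neurons, 7 of the 9 fibril-forming and all 4 tested type IV genes were among them. The log2 changes were -4.99 ± 0.52 for COL2A1 (adjusted p = 7.14e-06), -3.36 ± 0.54 for COL11A1, -3.05 ± 0.30 for COL5A2, -2.53 ± 0.82 for COL1A1, -2.38 ± 0.41 for COL27A1, -1.79 ± 0.58 for COL11A2 and -1.76 ± 0.51 for COL5A1. In the basement membrane group they were -3.04 ± 0.33 for COL4A1, -2.79 ± 0.70 for COL4A6, -2.44 ± 0.48 for COL4A5 and -1.70 ± 0.21 for COL4A2, beside COL18A1. COL9A1 had 3 UMIs in motor neurons and 280 in progenitors, 23.0-fold lower (exact 95% interval 7.79 to 112, counting error only), and COL14A1 had 3 and 130, 10.7-fold lower (3.57 to 52.4). COL1A2 and COL3A1 were not called, at 10 and 20 and at 2 and 4 UMIs in the motor neurons. Without either human part, 6 of the 14 falls and 0 of the 4 rises were still called (COL2A1, COL11A1, COL5A2, COL4A1, COL4A2 and COL18A1). There were 11 calls without human replicate 1 and 6 without human replicate 2, all with the same sign.

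Mouse motor neurons had 2 members higher and 11 lower, where 25.2% of all tested genes were higher and 29.0% lower, and a median of -1.53 against -0.06. COL9A3, a type IX chain, rose by 2.37 ± 0.66 (adjusted p = 0.00784), from 0.306 and 0.910 CPM to 2.00 and 5.58 CPM. COL6A3 was the other rise. The falls were -4.74 ± 0.59 for COL2A1 (adjusted p = 2.04e-05), -3.91 ± 0.41 for COL4A1, -2.88 ± 0.47 for COL27A1, -2.16 ± 0.45 for COL1A2, -2.11 ± 0.30 for COL4A2, -2.07 ± 0.62 for COL4A5, -1.82 ± 0.61 for COL12A1 and -1.58 ± 0.41 for COL11A1, beside COL18A1. COL23A1 had 0 UMIs against 88 in progenitors, at least 3.74-fold lower at a floor of 3 counts over the group, and COL5A1 had 3 against 265, 11.3-fold lower (3.82 to 55.0, counting error only). COL18A1, COL2A1, COL4A1 and COL4A2 were also called without either mouse part, and without mouse replicate 2 only 4 members were called.

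Fibril-forming genes (7 of 9 tested in human and 5 of 9 in mouse) and type IV genes (4 of 4 and 3 of 4) made most of the falls. The human and mouse changes differed for 5 members, where 17.4% of all tested genes differed in either direction. COL18A1 and COL1A2 (3.02 ± 0.61, adjusted p = 0.00488) had the more negative change in mouse, COL1A2 from a level that mesenchyme markers also reached in mouse replicate 2 (1.18% of the reference described with the free RNA values, marker median 4.98%). COL11A2 (-2.76 ± 0.77, adjusted p = 0.0259), COL5A2 (-3.05 ± 0.76, adjusted p = 0.0151) and COL9A3 (-4.05 ± 1.07, adjusted p = 0.0199) had the more negative change in human. Without mouse replicate 2 only the COL18A1 difference was called. COL1A2 was then 7.24 (adjusted p = 0.106), COL5A2 -0.55 (0.955) and COL9A3 -4.07 (0.235). Without human replicate 1 or human replicate 2 the calls were those of COL18A1 and COL1A2.

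Changes in other neurons were measured against the same progenitor sums as those in motor neurons, so likeness between them carries no weight of its own. In human 2 members were higher and 11 lower, where 13.5% of all tested genes were higher and 20.6% lower, and the median was -1.73 against -0.15. COL6A2 and COL16A1 (3.08 ± 0.97, on 4 and 4 UMIs) rose. The falls were -2.37 ± 0.44 for COL2A1, -2.32 ± 0.71 for COL9A1, -2.07 ± 0.48 for COL27A1, -2.06 ± 0.31 for COL5A2, -2.04 ± 0.34 for COL4A1, -1.79 ± 0.52 for COL4A5 and -1.73 ± 0.22 for COL4A2, beside COL18A1. COL14A1 (2 UMIs against 130) and COL4A6 (0 against 113, at least 4.25-fold lower) were called as well. COL23A1 was called on 0 UMIs against 25, where the floor of 3 counts gives a bound of 0.939-fold and so shows no fall. COL18A1, COL2A1, COL4A1 and COL4A2 were called without either human part. There were 4 calls without human replicate 1 and 5 without human replicate 2.

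In mouse other neurons 4 members were higher and 9 lower, where 23.1% of all tested genes were higher and 24.7% lower, and the median was -1.51 against -0.06. COL16A1 (3.29 ± 0.83), COL6A3, COL25A1 (2.96 ± 0.86) and COL9A2 (1.84 ± 0.65) rose. COL25A1, a membrane-spanning chain of developing neurons, had 0 and 11 UMIs here and 0 and 15 in the far more numerous progenitors. COL2A1 (-3.48 ± 0.57), COL12A1 (-2.87 ± 0.78), COL4A2 (-2.21 ± 0.35), COL4A1 (-2.12 ± 0.36), COL5A1 (-1.92 ± 0.69) and COL1A2 (-1.69 ± 0.51) fell, beside COL18A1, COL27A1 (3 UMIs against 314) and COL4A5 (2 against 231). The fall of COL1A2 turned to a rise of 0.82 when a neuron needed only 1 STMN2 UMI. COL18A1, COL27A1, COL4A1 and COL4A2 were called without either mouse part, and without mouse replicate 2 there were 5 calls. The difference between species was called for COL18A1 alone of the 29 members, where 10.3% of all tested genes differed in either direction.

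COL4A1 and COL4A2 encode the chains of the commonest type IV molecule and start head to head from a shared promoter region. On human chromosome 13 (hg38) they span 110148963 to 110307157 and 110307284 to 110513209, 126 bases apart. COL4A1 stood at 15.3, 28.8, 7.41 and 15.3 CPM in progenitors, 4.61, 2.29, 0.501 and 1.24 CPM in motor neurons, 3.73, 9.37, 1.59 and 4.91 CPM in other neurons and 65.6, 113, 24.8 and 62.3 CPM in LUM or TWIST1 cells. COL4A2 stood at 64.4, 119, 6.25 and 14.0 CPM, at 21.4, 41.4, 2.00 and 3.84 CPM, at 20.7, 45.3, 1.06 and 4.33 CPM and at 141, 198, 14.4 and 54.7 CPM. Both genes fell in neurons and rose in LUM or TWIST1 cells in each species.

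The ratio of the pair's UMIs was not constant across human classes. It was 0.238 and 0.241 COL4A1 UMIs per COL4A2 UMI in human progenitors (exact 95% intervals 0.208 to 0.272 and 0.217 to 0.268, counting error only) and 0.465 and 0.571 in LUM or TWIST1 cells (0.386 to 0.558 and 0.527 to 0.618), without overlap of the intervals. In human motor neurons it was 0.216 (0.101 to 0.419) and 0.0553 (0.0290 to 0.0965), so human replicate 2 lay below its progenitors and human replicate 1 did not. In mouse progenitors the ratio was 1.18 and 1.09. UMI ratios between genes also carry how well each 3′ end is captured, which cancels between classes of a part but not between species.

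The type VI pair shifted too. COL6A1 UMIs per COL6A2 UMI were 6.74 and 8.84 in human progenitors, 5.11 and 5.27 in motor neurons and 2.03 and 1.93 in LUM or TWIST1 cells. The intervals of human progenitors (5.53 to 8.28 and 6.95 to 11.4) and LUM or TWIST1 cells (1.61 to 2.56 and 1.66 to 2.25) did not overlap. COL1A1 UMIs per COL1A2 UMI were 2.54 and 4.83 in human progenitors and 0.426 and 0.351 in LUM or TWIST1 cells. The type I pair was found together in 90 and 144 thinned human LUM or TWIST1 cells, where the product of the shares gives 74.1 and 89.2.

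Droplet libraries hold free RNA, which spreads UMIs of abundant genes over all cells. An upper measure of its reach, since expression adds to it, was taken within each file as the level of a gene in a neural class in percent of its level in the cells with at least 3 LUM or TWIST1 UMIs. For mesenchyme markers that are not collagens, with at least 100 UMIs in that reference, the median was 0.282% and 1.66% in human progenitors (3 and 8 markers) and 4.98% in those of mouse replicate 2 (6 markers). In motor neurons it was 0%, 1.09% and 0.398%. Mouse replicate 1 had no marker with enough UMIs. The highest single marker in human motor neurons stood at 0.699% and 9.63%.

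COL3A1 lay below the marker median in all 3 neural classes of human replicate 2 and mouse replicate 2 and in the progenitors of human replicate 1. In motor neurons it stood at 0.217%, 0.179% and 0.0404% (human replicates 1 and 2 and mouse replicate 2), on 2, 4 and 2 UMIs. COL1A2 also lay below the marker median in each neural class of human replicate 2 and mouse replicate 2, with 0.562% and 0.349% in motor neurons. In those libraries free RNA and expression in neural cells cannot be told apart for either gene, since expression can also add to the marker median. The changes of COL1A2 in mouse neurons are therefore not read as changes of expression. In human replicate 1, which had only 3 such markers, COL1A2 stood at 0.464% in progenitors, above the median of 0.282%, and at 0.885% in motor neurons, on 10 UMIs, above the highest marker. The 39 UMIs of COL1A2 in its progenitors were unevenly spread, with 59.0% in 10 cells.

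Other fibril-forming chains stood higher in human progenitors. COL2A1 reached 9.75% and 5.02% of the reference, COL5A2 23.7% and 14.97% and COL1A1 2.71% and 3.43%, each above the marker median. The highest single marker stood at 1.89% and 21.4% there, below all 3 genes in human replicate 1 and above all 3 in human replicate 2. In mouse replicate 2 COL2A1 reached 77.9% in progenitors, above every marker.

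COL6A1 lay far above the marker median in human. It reached 40.1% and 64.2% of the reference in progenitors, 89.3% and 136% in motor neurons and 118% and 78.3% in other neurons. COL4A2 (37.1% and 43.9% in progenitors, 12.3% and 15.2% in motor neurons) and COL18A1 (41.3% and 33.0%, 15.3% and 7.58%) also exceeded the marker median in both classes. In the motor neurons of human replicate 2 COL18A1 lay below the highest marker (9.63%). The measure follows free RNA from LUM or TWIST1 cells only. Free RNA from progenitors, which also held these genes, was not measured, so its part in the motor neuron levels was not tested. COL6A2 could be read in human replicate 2, at 10.1%, 35.8% and 20.4%. COL6A1 UMIs in human motor neurons were spread over 131 and 222 cells, with 20.9% and 13.9% in the 10 highest. In mouse replicate 2 COL6A1 stood at 0.206% in progenitors and 0.420% in motor neurons, within the range of the markers.

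**Figure D4:**
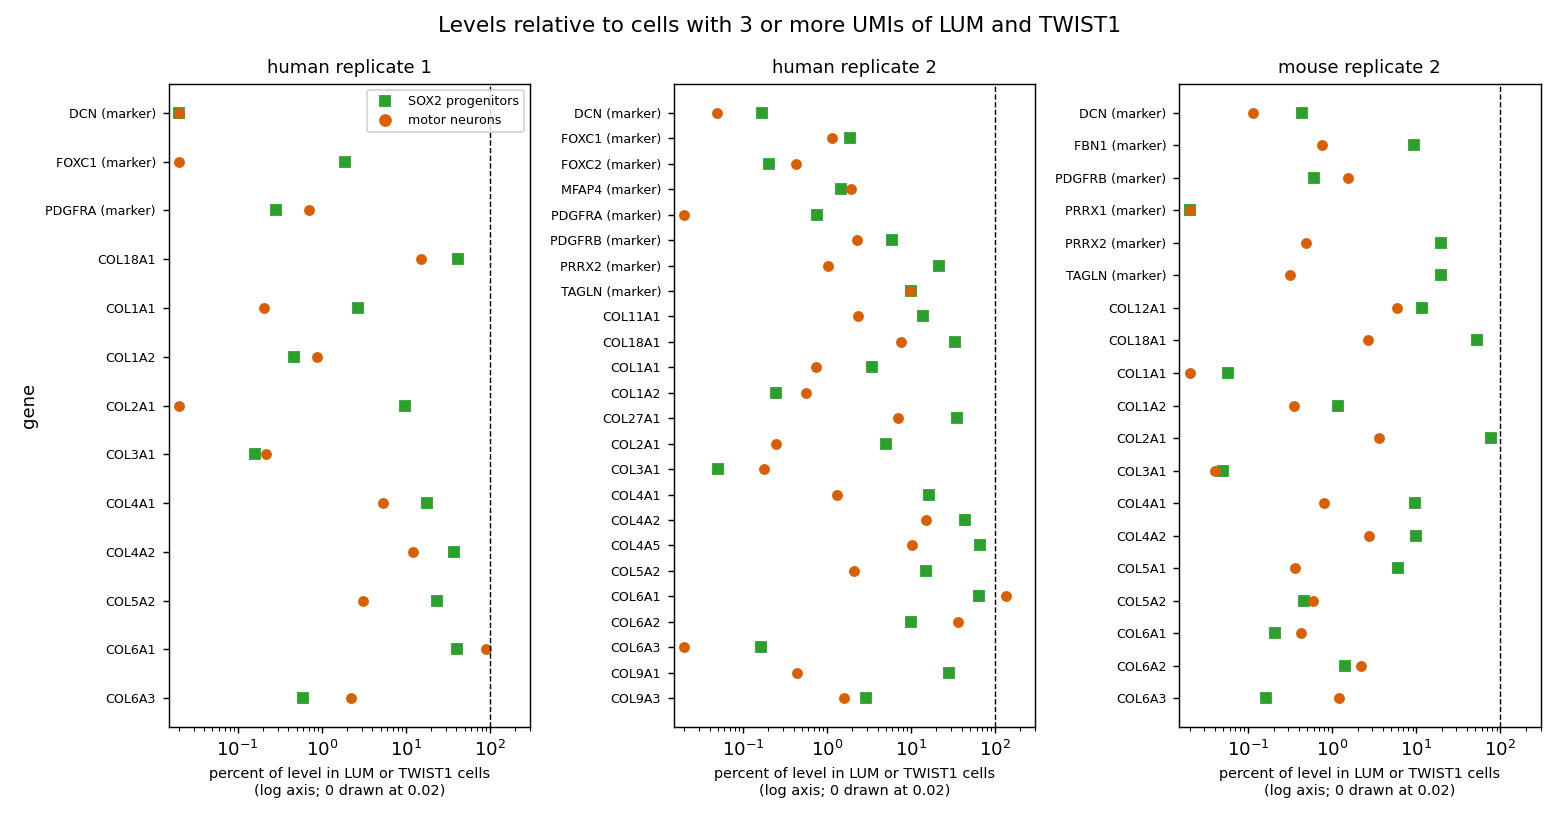
Level in progenitors and motor neurons in percent of the level in cells with at least 3 LUM or TWIST1 UMIs of the same file, on a log axis, for collagens and for mesenchyme markers that are not collagens. Human COL6A1 lies between 40.1 and 136%, while COL3A1 lies between 0.0404 and 0.217%.

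Collagen chains need a set of enzymes and chaperones to fold, among them prolyl and lysyl hydroxylases and the chaperone SERPINH1. Of 25 such genes 19 were tested. In LUM or TWIST1 cells 10 rose and 0 fell in human (4.33% of all tested genes were higher and 2.97% lower) and 2 rose and 0 fell in mouse (1.89% and 0.804%). In motor neurons 1 rose and 9 fell in human (18.9% and 25.7% of all tested genes) and 4 rose and 9 fell in mouse (25.2% and 29.0%). In other neurons 1 rose and 10 fell in human (13.5% and 20.6%) and 3 rose and 7 fell in mouse (23.1% and 24.7%). The counts of the 3 lists that follow are to be read against the same shares. Medians against progenitors were -0.75 in human and -0.66 in mouse motor neurons.

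In the human LUM or TWIST1 cells the lysyl hydroxylases PLOD3 (1.28 ± 0.19) and PLOD1 (1.56 ± 0.26), CRTAP (1.42 ± 0.27), which acts in prolyl 3-hydroxylation, and the prolyl hydroxylase subunit P4HA2 (1.00 ± 0.21) had the smallest p among these. In mouse P4HA2 (1.09 ± 0.24) and FKBP10 (1.78 ± 0.42) rose. In human motor neurons SERPINH1 fell from 110.4 and 36.1 CPM to 21.8 and 2.82 CPM (-3.02 ± 0.31), and FKBP10 (-3.10 ± 0.35), SPARC (-3.23 ± 0.43) and P4HA1 (-1.46 ± 0.19) fell with it. SPARC, a collagen-binding matrix protein, also fell in mouse motor neurons (-6.18 ± 0.60, on 2 and 8 UMIs). In human other neurons SERPINH1 (-2.79 ± 0.35) and P4HA1 (-1.62 ± 0.21) fell, and in mouse other neurons SPARC (-3.63 ± 0.49) fell while P4HA2 (1.42 ± 0.23) rose.

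Of 13 genes that process and crosslink collagen 11 were tested. In LUM or TWIST1 cells 3 rose and 0 fell in each species. In motor neurons 2 rose and 3 fell in human, near the 18.9% and 25.7% of all tested genes, and 3 rose and 4 fell in mouse (25.2% and 29.0%). In other neurons 2 rose and 3 fell in human (13.5% and 20.6%) and 1 rose and 1 fell in mouse (23.1% and 24.7%). LOX, a lysyl oxidase that crosslinks fibrils (4.33 ± 0.39 in human, 6.25 ± 0.65 in mouse), and PCOLCE, an enhancer of procollagen cleavage (5.02 ± 0.44 and 3.90 ± 0.54), rose in LUM or TWIST1 cells. LOXL1, a lysyl oxidase relative, rose in human motor neurons and in human other neurons (2.25 ± 0.25, adjusted p = 3.9e-05). The 2 neuron classes did not differ detectably in LOXL1 (0.73 ± 0.23, adjusted p = 0.269). LOXL1 stood at 33.6 and 11.4 CPM in human progenitors and 343 and 89.5 CPM in human motor neurons, 2.99 ± 0.24 higher (adjusted p = 1.74e-06), and at 0 UMIs in both mouse motor neuron classes. BMP1, which cleaves procollagen ends, rose in motor neurons of both species (1.69 ± 0.25 and 1.24 ± 0.25) and in other neurons of both (0.95 ± 0.28 and 1.13 ± 0.26).

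Of 12 collagen receptors 6 were tested. In LUM or TWIST1 cells DDR2, the receptor for fibrils, rose in human (5.57 ± 0.54) and mouse (3.12 ± 0.74), MRC2 rose in human (2.05 ± 0.32) and DDR1 fell in human (-0.86 ± 0.19), which makes 2 higher and 1 lower in human and 1 higher in mouse. In motor neurons 0 rose and 2 fell in each species, MRC2 (-2.55 ± 0.45 in human) and ANTXR1 (-1.46 ± 0.44 in human), where 25.7% of all tested genes fell in human and 29.0% in mouse. In other neurons 1 fell in human and 2 in mouse (20.6% and 24.7% of all tested genes).

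Of 13 basement membrane partners 11 were tested. In LUM or TWIST1 cells 4 rose in human and 3 in mouse, LAMB1 (3.12 ± 0.29 and 1.91 ± 0.35) among them. In motor neurons 0 rose and 6 fell in human (18.9% and 25.7% of all tested genes), with HSPG2 (-2.63 ± 0.34), the core of perlecan, and NID1 (-3.38 ± 0.54), which links laminin and type IV collagen. In mouse motor neurons 1 rose and 7 fell (25.2% and 29.0%). The gene that rose was AGRN (1.24 ± 0.22), the synapse-organising proteoglycan agrin, from 10.6 and 23.3 CPM to 21.6 and 82.7 CPM. In other neurons 0 rose and 3 fell in human (13.5% and 20.6%) and 1 rose and 7 fell in mouse (23.1% and 24.7%). Of the tested genes of these 4 lists 0 were called between motor and other neurons in either species by edgeR. Of all tested genes only 0.674% in human and 2.52% in mouse were called there, so a count of 0 says little about these lists.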

How the data were processed

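Single cells were profiled by 10x 3′ sequencing, and the 4 deposited tables hold raw counts of UMIs per gene and cell, which the submitters' processing notes credit to Cell Ranger 3.1.0 with the hg38 and mm10 builds. The annotation and the strand setting of the counting are not given in the sources used here. Gene positions came from RefSeq (human) and GENCODE (mouse) tables, which matched all 42 members.

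Cells with under 1000 UMIs, under 500 genes or over 10% mitochondrial UMIs were removed (5 to 215 per part), as were doublets called by Scrublet in scanpy 1.11.5 (5 to 32 per part, expected share 5%) and barcodes present in both species tables of the mixed library. UMIs were summed per library part and gated class (16 sums) over symbols common to the 4 tables. edgeR 4.0.16 in R 4.3.3 (TMM, filterByExpr, quasi-likelihood test) fitted all sums at once, with the library part as a block because the classes of a part share a library, and Benjamini-Hochberg adjustment ran over 11567 genes. SEs are the log2 fold change divided by the square root of F. The procedure was tested on simulated data. Intervals and floors of 3 counts cover counting error only.

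The text names every member called in a comparison (at most 20), 10 members in every comparison (COL1A1, COL1A2, COL2A1, COL3A1, COL4A1, COL4A2, COL6A1, COL6A2, COL6A3 and COL18A1) and up to 4 genes per other list. Members and lists were chosen with earlier results of these data known. Alternatives were other gates, scalings, filters and tests (DESeq2 1.42.0), a fit per species, no block, leaving out each part and, added after seeing the data, leaving out the 16 LUM or TWIST1 cells of mouse replicate 1.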

Additional observations from a re-analysis of the deposited data

Results flagged for a closer look

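These 10 changes against progenitors differed between human and mouse by edgeR's interaction test (adjusted p under 0.05), given as the human minus the mouse log2 change. Of all tested genes 1.3% differed in LUM or TWIST1 cells, 17.4% in motor neurons and 10.3% in other neurons, in either direction. In LUM or TWIST1 cells the difference was 3.27 for COL1A2, 2.74 for COL2A1, -3.64 for COL5A2 and -5.54 for COL6A1. In the human parts these 4 genes rose by 7.59, 3.28, 1.92 and 0.69, and the rise of COL6A1 did not pass the test. In mouse they rose by 4.32, 0.54, 5.56 and 6.24, and that of COL2A1 did not pass. In motor neurons the difference was 2.46 for COL18A1, 3.02 for COL1A2, -2.76 for COL11A2, -3.05 for COL5A2 and -4.05 for COL9A3. In other neurons it was 1.03 for COL18A1. The COL18A1 difference in motor neurons was called in each fit that left out 1 part. So was the COL1A2 difference in LUM or TWIST1 cells. Without mouse replicate 2 it rested on the 16 cells of mouse replicate 1, so that fit adds no support. The make-up of the LUM or TWIST1 gate differed between species, and its part in the 4 differences there was not tested. COL5A2 in mouse motor neurons rested on 0 and 6 UMIs and COL9A3 in human motor neurons on 1 and 4. For COL1A2 in mouse neurons free RNA and expression cannot be told apart.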

How the results depend on the processing

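Among the members the counts called were 18 and 13 (LUM or TWIST1 cells, human and mouse), 18 and 13 (motor neurons), 13 and 13 (other neurons), 0 and 1 (between neuron classes), and 4, 5, 1 and 0 for the species differences. Without the replicate block they were 3 and 0, 6 and 7, 3 and 6, 0 and 0, and 0 for each species difference, and 25 of the 99 calls were kept with none reversed. Leaving out 1 part, or the 16 LUM or TWIST1 cells of mouse replicate 1, gave 9 to 18 and 0 to 15, 6 to 19 and 4 to 13, 4 to 15 and 5 to 13, and 0 to 1 in each species between neuron classes. The species differences then numbered 1 to 5, 1 to 5, 0 to 1 and 0. Over those fits the mouse change in LUM or TWIST1 cells ran from -3.59 to 4.49 for COL16A1, -4.04 to 8.72 for COL1A1, -0.041 to 2.30 for COL5A1, -2.44 to 5.68 for COL5A2, -3.84 to 6.88 for COL6A1, -4.39 to 4.15 for COL6A2 and -4.23 to 3.08 for COL7A1. The species difference there ran from -3.81 to 4.37 for COL5A2 and from -6.20 to 4.53 for COL6A1. Each lowest mouse value, and each highest difference, came without mouse replicate 2, which leaves 16 cells in that class.

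Species fitted apart gave 6 calls in mouse LUM or TWIST1 cells, and the DESeq2 test 7 in human other neurons. A gate of 3 LUM or TWIST1 UMIs and gates on thinned cells each gave 8 species differences in that class. Thinned gates also gave 4 species differences in other neurons and 0 calls between mouse neuron classes. A gate of 1 STMN2 UMI gave 8 and 2 calls in human and mouse other neurons, 0 species differences there, and 6 and 4 calls between neuron classes. It reversed COL1A2 in mouse other neurons (0.82) and the COL18A1 species difference there (-0.11). With no filter on low counts 1 member was called between human neuron classes. The cause of these moves was not tested. The member counts under changed settings stand without the share of all tested genes called under the same setting. They are thus not read as moves of the collagens in particular. DESeq2 size factors kept 98 of the 99 calls but moved the median of all genes in human motor neurons from -0.09 to 0.04 and their calls from 2188 higher and 2972 lower to 2699 and 2420, and in human other neurons from -0.15 to 0.01 and from 1567 and 2381 to 1999 and 1660. In mouse motor neurons the median moved from -0.06 to 0.06 and the calls from 2911 and 3357 to 3391 and 2864. COL6A1 in human motor neurons was not called without the block (0.93, adjusted p = 0.47) or by DESeq2 (1.09, adjusted p = 0.378).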

Other observations

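The 3 collagen symbols outside the common tables were read where they stand. COL21A1, a fibril-associated chain in the human tables only, had 16 and 215 UMIs in the human LUM or TWIST1 cells (6.03 and 25.02 CPM), 0 and 1 in the progenitors and 0 in the neurons of both parts. COL26A1 stood in human replicate 2 at 21.7 CPM in progenitors, 13.6 CPM in motor neurons, 8.59 CPM in other neurons and 39.3 CPM in LUM or TWIST1 cells, in mouse replicate 1 at 0.578, 3.51, 0.530 and 2.06 CPM (17, 7, 1 and 1 UMIs), and in mouse replicate 2 at 2.02, 7.68, 23.4 and 7.55 CPM. Motor neurons lay above other neurons in mouse replicate 1 and below them in mouse replicate 2. Of the antisense rows of collagen genes only COL1A2-AS1 had UMIs in the gated classes, 7 in the LUM or TWIST1 cells of human replicate 2 (0.814 CPM).

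Cells in no gate had a collagen share of 0.0284%, 0.0343%, 0.0120% and 0.0292% of UMIs, led by COL4A2 in both human parts (16.05% and 26.5% of their collagen UMIs) and by COL18A1 in both mouse parts (69.9% and 50.7%).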
